A study of Homo sapiens with 12 samples.

Results

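The 10 genes described here regulate or carry out the transcriptional response to activating transcription factor 4 in human cells. They were ATF4 itself, the related factors ATF3 and ATF5, the partner CEBPB, the stress factors DDIT3 and NUPR1, the kinase-like regulator TRIB3, and the effectors CHAC1, ASNS and ADM2. The members were chosen by name, with earlier results of these same data in view, from the 60591 genes of the deposited count table, and each name matched 1 row. All 10 passed the filter on low counts that left 19108 genes for testing.

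The RNA came from PC9 and H1650, established lines of human non-small cell lung cancer that carry an activating deletion in EGFR and are labelled wild-type in genotype. In each line the T0 group was collected at 0 h in 0.1% DMSO, the erlotinib group after 36 h in 10 µM erlotinib, and the osimertinib group after 36 h in 0.1 µM osimertinib. Erlotinib is a reversible EGFR kinase inhibitor and osimertinib binds the kinase covalently. Each of the 6 groups held 2 replicates, which the study describes as biological, so there were 12 polyA-selected libraries. No group was kept for 36 h in vehicle alone, so drug and time in culture cannot be told apart, and the doses of the drugs differed, so drug and dose cannot be told apart either.

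The libraries held 17961765 to 26346187 assigned reads, of which mitochondrial genes took 4.36% to 7.2%. At this depth, 3 reads equal 0.116 to 0.168 CPM (counts divided by the library size in megareads), and levels in the text are CPM normalized by edgeR's trimmed mean of M-values, abbreviated TMM. Summed epithelial markers (EPCAM, KRT8, KRT18, KRT19, CDH1) reached 5940 to 9156 normalized CPM in PC9 and 5166 to 8628 in H1650. Summed markers of leukocytes, endothelium and fibroblasts stayed at or below 5.55 normalized CPM in every library. These are bulk libraries, in which a change in the number of expressing cells and a change in RNA per cell cannot be told apart.

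In the integrated stress response, kinases that sense amino acid shortage, misfolded protein in the endoplasmic reticulum, double-stranded RNA or haem deficiency phosphorylate the translation factor eIF2. General translation then slows, while translation of the ATF4 message increases. ATF4 protein binds DNA as a dimer, often with a C/EBP family member, and raises transcription of genes for amino acid synthesis, amino acid import, tRNA charging and, under sustained stress, cell death. RNA levels of ATF4 therefore describe only a portion of its control.

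The composite C/EBP-ATF element bound by such dimers has the core TGATGNAA, and promoters of members that hold it are printed here. RefSeq windows on GRCh38.p14, running from 250 bases before to 50 bases after a transcription start, were found for 9 of the 10 members (NUPR1 had no entry). The core was searched on both strands and occurred in 3 of these 9 genes (33.3%), in 18 of 62 other pathway genes with a window (29%), and in 1217 of 27305 genes overall (4.46%), or 1270 of 35116 windows (3.62%). Each window is written 5′ to 3′ on the strand of its gene, and capitals mark the matched core.
ATF3: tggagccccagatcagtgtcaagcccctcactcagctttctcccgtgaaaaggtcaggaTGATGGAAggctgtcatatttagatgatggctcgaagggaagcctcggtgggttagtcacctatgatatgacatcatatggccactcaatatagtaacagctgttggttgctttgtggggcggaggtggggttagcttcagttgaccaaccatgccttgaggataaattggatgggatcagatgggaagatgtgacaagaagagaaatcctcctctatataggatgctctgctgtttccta
CHAC1: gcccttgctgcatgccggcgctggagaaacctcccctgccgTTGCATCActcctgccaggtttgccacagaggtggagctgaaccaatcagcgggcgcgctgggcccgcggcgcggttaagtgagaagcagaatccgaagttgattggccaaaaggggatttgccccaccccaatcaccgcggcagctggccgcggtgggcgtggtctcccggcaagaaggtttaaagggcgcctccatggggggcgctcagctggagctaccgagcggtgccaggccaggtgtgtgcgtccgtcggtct
ASNS: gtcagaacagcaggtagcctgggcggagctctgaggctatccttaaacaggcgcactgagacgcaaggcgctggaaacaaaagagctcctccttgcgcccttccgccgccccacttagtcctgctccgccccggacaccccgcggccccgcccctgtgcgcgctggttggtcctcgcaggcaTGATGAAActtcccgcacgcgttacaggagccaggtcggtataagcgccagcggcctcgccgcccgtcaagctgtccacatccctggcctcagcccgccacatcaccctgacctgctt
The ATF3 window is chr1:212565157-212565456 on the plus strand, with the first base of TGATGGAA at position -191 from the start. The CHAC1 window is chr15:40953221-40953520 on the plus strand and lies inside the gene's GENCODE 29 span. It holds the core on the reverse strand, read here as TTGCATCA, with its first base at -209. The ASNS window is chr7:97872359-97872658 on the minus strand, and its TGATGAAA begins at -68. ATF3 and ASNS each had a second window without the core. ATF3, CHAC1 and ASNS were all higher after erlotinib in PC9. So were ATF4, DDIT3, TRIB3 and ADM2, whose windows lacked the core, and ATF3 was lower after erlotinib in H1650. A match is a description of letters and was not tested as a binding site.

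Among the members, the effectors CHAC1, ASNS and ADM2 were far higher after erlotinib than at T0 in both lines. After osimertinib CHAC1 and ASNS overlapped T0 in both lines, while ADM2 was at 1.69 times its T0 level in H1650. ATF4, TRIB3 and NUPR1 were also highest after erlotinib in each line. ATF5 was lower after both drugs in both lines. ATF3 was higher after both drugs in PC9 and lower after both in H1650. The members were chosen with these contrasts of the same data known. Their changes with drug are therefore given as log2 differences with a standard error (SE) and with no test. Each SE is the absolute log2 difference divided by the square root of the edgeR F statistic. It is smaller than counting error for NUPR1 in comparisons with PC9 T0, where that gene had 4 reads.

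**Figure D1:**
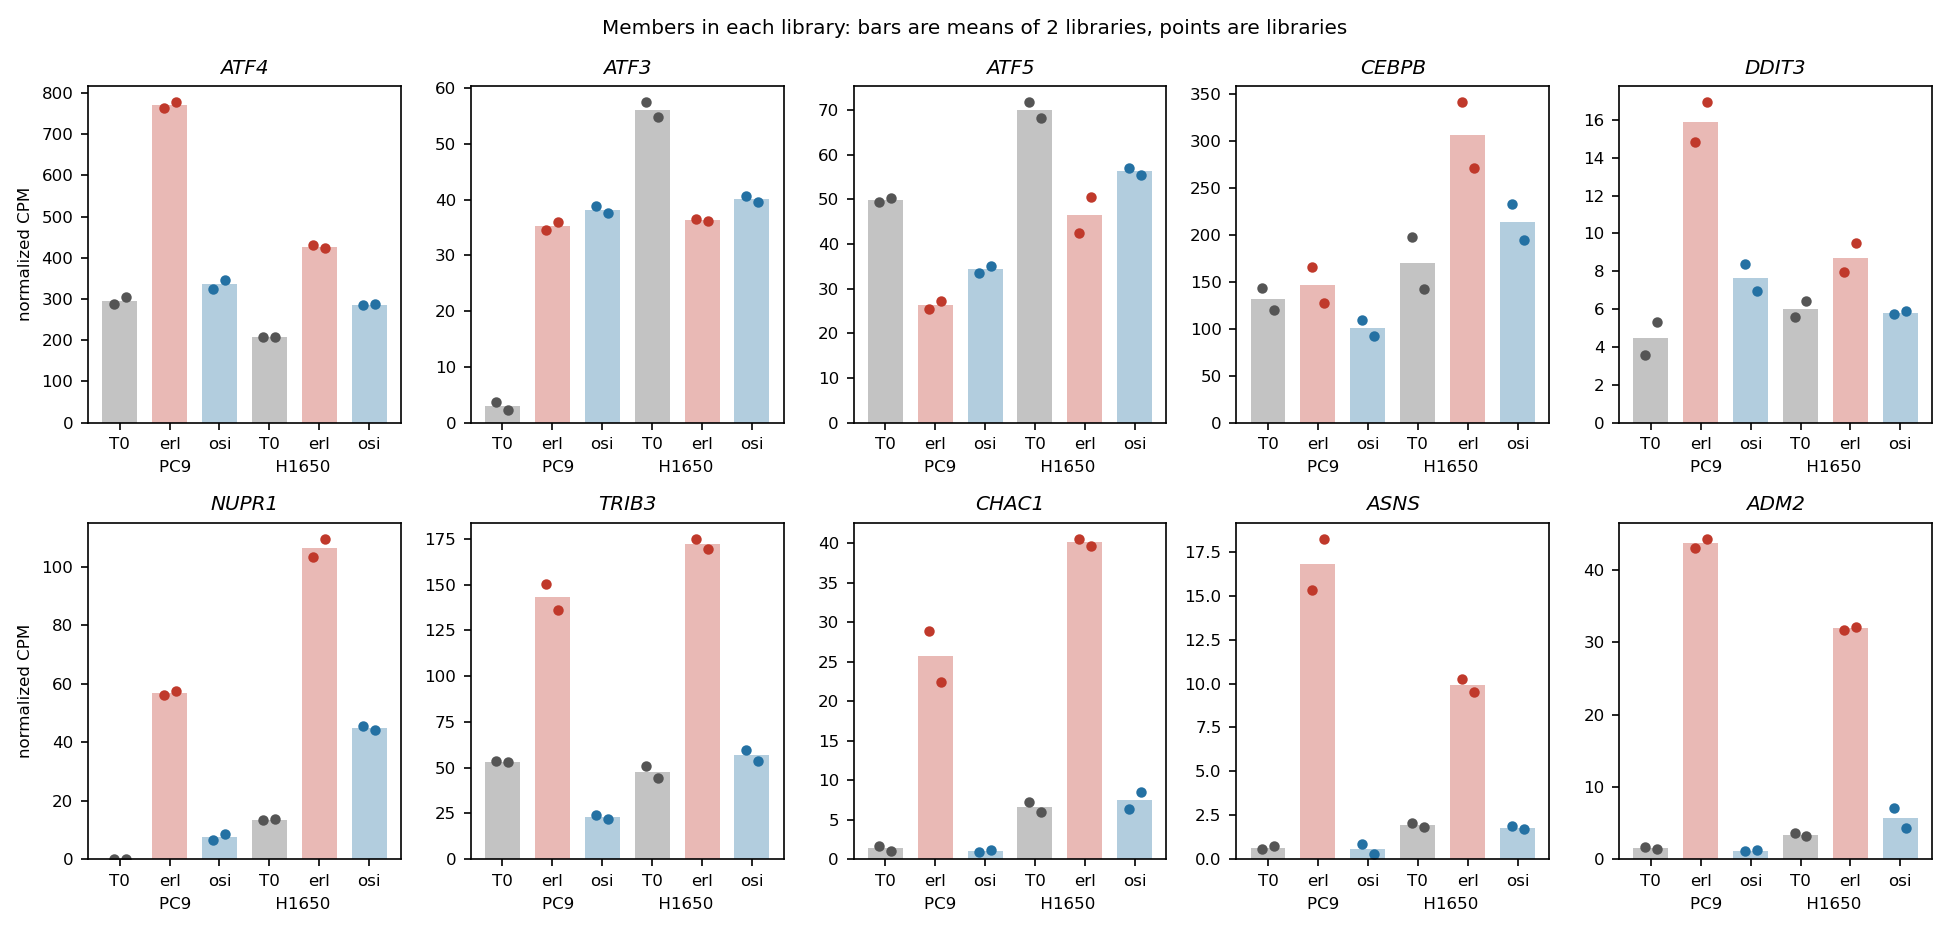
Normalized CPM (vertical axis, from 0) of the 10 members in all 12 libraries, grouped on the horizontal axis by line and by treatment (T0, erl for 36 h of erlotinib, osi for 36 h of osimertinib). Points are libraries and bars are means of 2. In both lines the erlotinib points of CHAC1, ASNS, ADM2, TRIB3 and NUPR1 stand above those of T0 and osimertinib, and those of ATF5 stand below T0. The vertical scale differs between panels.

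ATF4, the central factor, lies at chr22:39519695-39522685 on the plus strand (GENCODE 29, GRCh38). In PC9 it measured 287 and 304 normalized CPM at T0, 764 and 778 after erlotinib, and 326 and 345 after osimertinib. In H1650 it measured 207 and 208 at T0, 430 and 423 after erlotinib, and 285 and 287 after osimertinib. The erlotinib libraries were the highest of their line and no pair of groups within a line overlapped. Against T0, the log2 difference after erlotinib was 1.38 (SE 0.0672) in PC9 and 1.04 (SE 0.0672) in H1650. The corresponding log2 differences after osimertinib were 0.18 (SE 0.0666) and 0.46 (SE 0.0670).

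ATF3, a factor induced early in many stresses, is encoded at chr1:212565334-212620777 on the plus strand. PC9 held 3.73 and 2.32 normalized CPM at T0, 34.5 and 36.0 after erlotinib, and 38.8 and 37.6 after osimertinib. H1650 held 57.6 and 54.9 at T0, 36.5 and 36.1 after erlotinib, and 40.6 and 39.6 after osimertinib. T0 was thus the lowest group in PC9 and the highest in H1650, and the 4 treated groups had means within 35.3 to 40.1 normalized CPM. The log2 difference from T0 was 3.54 (SE 0.138) with erlotinib and 3.66 (SE 0.138) with osimertinib in PC9, and -0.63 (SE 0.0974) and -0.49 (SE 0.0964) in H1650.

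ATF5, a factor of the mitochondrial branch of stress signalling, is at chr19:49928702-49933935 on the plus strand. In PC9 every treated library was below T0, with 49.4 and 50.3 normalized CPM at T0, 25.4 and 27.3 after erlotinib, and 33.4 and 35.2 after osimertinib. In H1650 the values were 71.8 and 68.1, then 42.5 and 50.5, then 57.1 and 55.5. No groups within a line overlapped, and T0 was the highest in each. Erlotinib differed from T0 on the log2 scale by -0.92 (SE 0.0923) in PC9 and -0.59 (SE 0.0877) in H1650, and with osimertinib -0.54 (SE 0.0917) and -0.31 (SE 0.0865). Exons of ATF5 share 626 bases with NUP62 on the opposite strand in GENCODE 29, and since the strandedness of counting is not given in the sources used here, reads of the pair cannot be told apart there. NUP62 measured 184 and 174 normalized CPM at T0 in PC9 and 93.8 to 104 in the treated libraries, and 169 and 165 at T0 in H1650 and 145 to 161 in the treated ones, and its part in the ATF5 values was not tested.

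CEBPB, a dimer partner of ATF4, is at chr20:50190734-50192689 on the plus strand. In PC9 it measured 143 and 120 normalized CPM at T0, 166 and 127 after erlotinib, and 109 and 92.7 after osimertinib. In H1650 it measured 197 and 143 at T0, 341 and 271 after erlotinib, and 233 and 194 after osimertinib. Replicate 1 was the higher library in all 6 groups, and T0 overlapped erlotinib in PC9 and osimertinib in H1650. Against T0, the log2 difference was 0.15 (SE 0.132) in PC9 and 0.85 (SE 0.130) in H1650 after erlotinib. With osimertinib it was -0.38 (SE 0.134) and 0.33 (SE 0.130).

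DDIT3, which encodes the pro-apoptotic factor CHOP, is at chr12:57516588-57521737 on the minus strand. It measured 3.58 and 5.33 normalized CPM at T0 in PC9, 14.8 and 16.9 after erlotinib, and 8.37 and 6.95 after osimertinib. H1650 gave 5.60 and 6.44 at T0, 7.95 and 9.50 after erlotinib, and 5.73 and 5.88 after osimertinib. The erlotinib libraries were the highest in each line, and in H1650 the osimertinib libraries lay between those of T0. The log2 difference with erlotinib was 1.83 (SE 0.180) in PC9 and 0.53 (SE 0.179) in H1650, and with osimertinib 0.79 (SE 0.193) and -0.06 (SE 0.186). DDIT3 exons share 355 bases with MARS, the methionyl-tRNA synthetase gene (MARS1 in the table), on the opposite strand, and reads of this pair cannot be told apart there either. MARS1 measured 159 and 153 normalized CPM at T0 in PC9, 256 and 246 after erlotinib, and 92.4 and 97.6 after osimertinib. In H1650 it measured 135 and 138, then 271 and 285, then 143 and 138, so it too was highest after erlotinib, and its part in the DDIT3 values was not tested.

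NUPR1, a small nuclear stress protein, is at chr16:28532708-28539174 on the minus strand. The PC9 libraries held 0 and 4 reads at T0, 1255 and 1472 after erlotinib, and 140 and 152 after osimertinib. In normalized CPM these were 0 and 0.197, 56.2 and 57.5, and 6.47 and 8.52. H1650 held 13.2 and 13.8 normalized CPM at T0, 103 and 110 after erlotinib, and 45.4 and 44.2 after osimertinib. Both treated groups lay above T0 in each line with no overlap. Because the PC9 T0 group held 4 reads in all, its change is best read as a ratio of reads scaled to library size, 570 with erlotinib (95% exact interval 222 to 2094) and 74.2 with osimertinib (28.7 to 274), intervals that cover counting error only. The log2 difference in H1650 was 2.98 (SE 0.112) with erlotinib and 1.73 (SE 0.113) with osimertinib.

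TRIB3, a pseudokinase that ATF4 induces and that in turn restrains it, is at chr20:362835-397559 on the plus strand. PC9 gave 53.8 and 52.8 normalized CPM at T0, 150 and 136 after erlotinib, and 24.4 and 21.9 after osimertinib. H1650 gave 51.0 and 44.5, then 175 and 170, then 59.8 and 53.8. In PC9 the osimertinib libraries were the lowest and in H1650 they were above T0, with no overlap in either line. On the log2 scale erlotinib differed from T0 by 1.42 (SE 0.0854) in PC9 and 1.85 (SE 0.0858) in H1650, and with osimertinib -1.20 (SE 0.0943) and 0.25 (SE 0.0872).

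CHAC1, an enzyme that degrades glutathione, is at chr15:40952962-40956519 on the plus strand. It measured 1.66 and 1.04 normalized CPM at T0 in PC9, 28.9 and 22.4 after erlotinib, and 0.925 and 1.18 after osimertinib. In H1650 it measured 7.23 and 5.94, then 40.6 and 39.7, then 6.40 and 8.55. Erlotinib libraries stood apart in both lines while T0 and osimertinib overlapped in both. Erlotinib differed from T0 on the log2 scale by 4.24 (SE 0.208) in PC9 and 2.61 (SE 0.156) in H1650, against -0.37 (SE 0.346) and 0.19 (SE 0.175) with osimertinib.

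ASNS, asparagine synthetase, is at chr7:97852118-97872542 on the minus strand. PC9 held 11 and 15 reads at T0, 342 and 468 after erlotinib, and 19 and 5 after osimertinib. H1650 held 44 and 48 reads, then 199 and 205, then 39 and 39. In normalized CPM, T0 and osimertinib overlapped in both lines and erlotinib did not overlap either. The log2 difference with erlotinib was 4.68 (SE 0.270) in PC9 and 2.34 (SE 0.227) in H1650. With osimertinib it was -0.10 (SE 0.448) in PC9, and as a ratio of scaled reads 0.938 (95% exact interval 0.516 to 1.70). Without replicate 1 of the PC9 osimertinib group that log2 difference was -1.19, and without replicate 2 it was 0.43. In H1650 it was -0.11 (SE 0.279). ASNS shares 1985 exonic bases with AC079781.5 on the same strand in GENCODE 29, and reads there could have been lost or split in counting. In PC9 AC079781.5 held 7 and 3 reads at T0, 35 and 26 after erlotinib, and 47 and 19 after osimertinib. In H1650 it held 0 and 5 reads at T0 and 0 in the treated libraries. Its part in the ASNS values was not tested.

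ADM2, a secreted peptide of the calcitonin family also called intermedin, is at chr22:50481556-50486440 on the plus strand. PC9 gave 1.71 and 1.43 normalized CPM at T0, 43.1 and 44.3 after erlotinib, and 1.06 and 1.23 after osimertinib. H1650 gave 3.54 and 3.13, then 31.7 and 32.2, then 7.02 and 4.28. The osimertinib libraries lay below T0 in PC9 and above it in H1650. The log2 difference with erlotinib was 4.79 (SE 0.187) in PC9 and 3.26 (SE 0.164) in H1650, and with osimertinib -0.46 (SE 0.314) and 0.76 (SE 0.192).

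**Figure D2:**
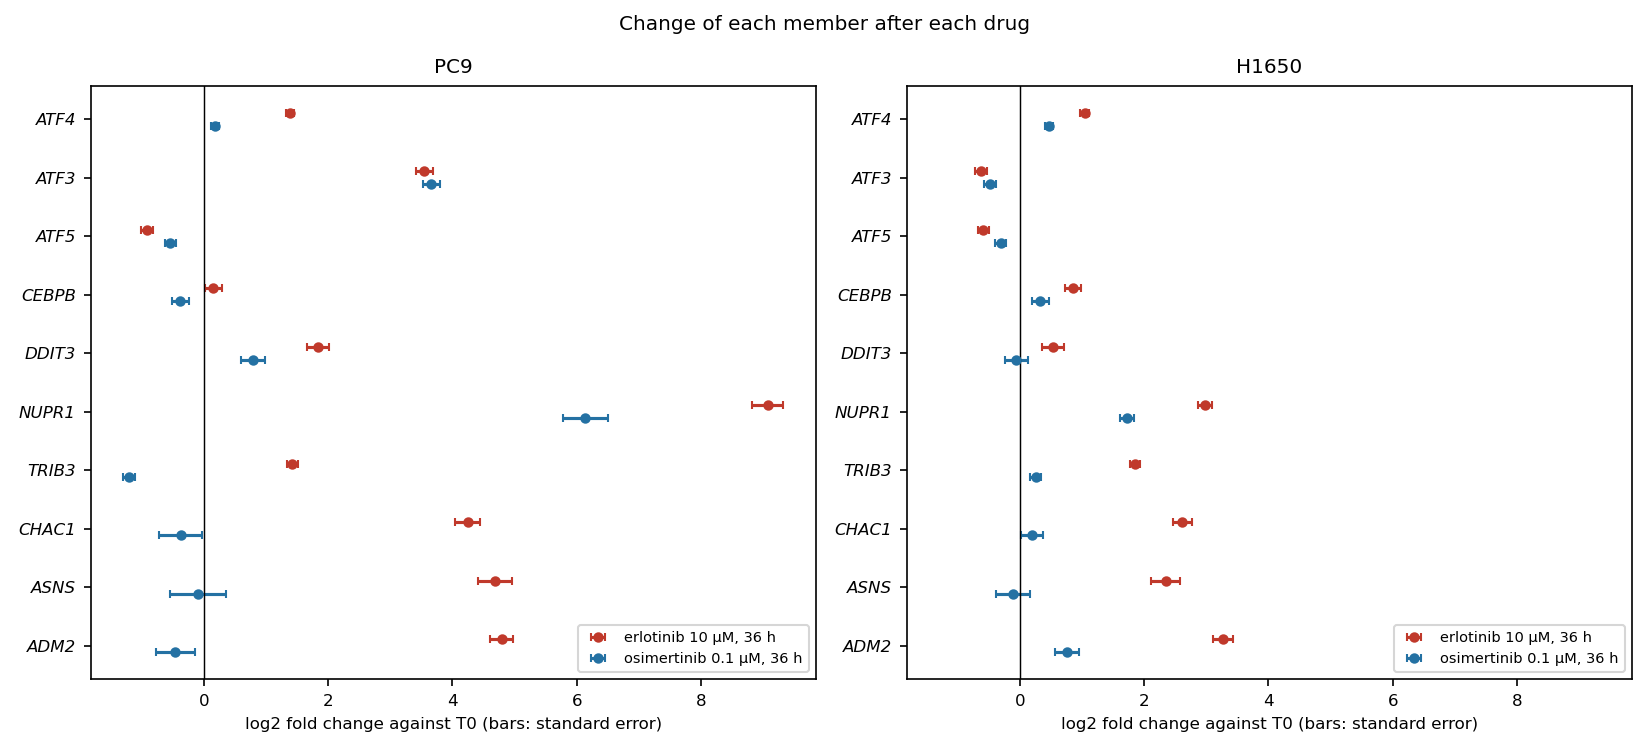
Log2 fold change from T0 (horizontal axis) of each member (vertical axis) with erlotinib (red) and osimertinib (blue) in PC9 and H1650. Points are edgeR estimates and bars are 1 SE, and ADM2 after erlotinib sits at 4.79 in PC9 and 3.26 in H1650. The NUPR1 points in PC9 rest on 4 reads at T0, and their bars are shorter than counting error.

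Compared directly, osimertinib gave lower levels than erlotinib for ATF4, CEBPB, DDIT3, NUPR1, TRIB3, CHAC1, ASNS and ADM2 in both lines. In PC9 the log2 difference of osimertinib against erlotinib reached -5.25 (SE 0.198) for ADM2, -4.61 (SE 0.218) for CHAC1, -2.63 (SE 0.0925) for TRIB3 and -1.20 (SE 0.0669) for ATF4. In H1650 the same differences were -2.51 (SE 0.153), -2.42 (SE 0.155), -1.60 (SE 0.0850) and -0.58 (SE 0.0666). ATF3 was the member that differed least between the drugs in each line, by 0.12 (SE 0.0993) in PC9 and 0.14 (SE 0.0992) in H1650.

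For orientation, edgeR's quasi-likelihood test at an adjusted p of 0.05 called 8 members higher and 1 lower after erlotinib in PC9, where 32.7% of all tested genes were called higher and 29.1% lower. After osimertinib in PC9 it called 4 higher and 3 lower, beside 32.7% and 28.7% of all genes. In H1650 it called 8 higher and 2 lower after erlotinib (18% and 18.5% of all genes), and 5 higher and 2 lower after osimertinib (17.8% and 17.9%). With osimertinib against erlotinib it called 1 higher and 8 lower in PC9 (10.1% and 6.41%) and 8 lower with 2 not called in H1650 (5.02% higher and 3.73% lower). These counts follow from the way the members were chosen and nothing is read from them. The median log2 difference of the members was 2.69, -0.24, 1.45 and 0.22 for erlotinib and osimertinib in PC9 and then in H1650, and over all tested genes it was 0.07, 0.06, 0.01 and 0. The drug groups of a line were compared with the same T0 libraries.

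Scaled per length, as normalized RPKM (normalized CPM divided by gene length in kilobases), ATF4 was the most abundant member at T0 in PC9, at 118 ± 4.61 (SD, n = 2), followed by CEBPB at 71.7 ± 8.92. TRIB3 at 17.6 ± 0.228 and ATF5 at 17.2 ± 0.230 came next and differed by less than the sum of their SDs. Below them were DDIT3 at 3.41 ± 0.948, ATF3 at 0.749 ± 0.247 and CHAC1 at 0.658 ± 0.216, of which the last pair overlapped. ADM2 (0.367 ± 0.0466), ASNS (0.132 ± 0.0268) and NUPR1 (0.0179 ± 0.0253) closed the order. Reads lost in the bases that ASNS shares with AC079781.5 could make its RPKM too low. After erlotinib in PC9, ATF4 stood at 307 RPKM, CEBPB at 79.7, TRIB3 at 47.2, CHAC1 at 12.5 ± 2.22 and DDIT3 at 12.2 ± 1.15, which differed by less than the SD of either. NUPR1 at 10.3 ± 0.161 and ADM2 at 10.2 ± 0.208 followed and also differed by less than the SD of either. Next were ATF5 at 9.11 ± 0.443 and ATF3 at 8.73 ± 0.256, which overlapped, and then ASNS at 3.43. The order depends on the gene lengths of the deposited counts, which are 5508 bases for NUPR1. Where the transcripts present are shorter than that length, the RPKM is too low.

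The lines already differed in these genes before treatment. The choice of the members did not rest on this contrast, but earlier results of these data were in view. It uses the same T0 libraries as the drug contrasts, so its calls are descriptions and not independent evidence. By the quasi-likelihood test of edgeR, with p adjusted by the Benjamini-Hochberg method over all genes, 8 of the 10 members were higher in H1650 than in PC9 at T0 and 1 was lower, where 35.8% of all tested genes were higher and 33.8% lower. ATF4 was the lower one, with a log2 difference of -0.51 (SE 0.0670, adjusted p = 1.29e-07). ATF3 was higher by 4.22 (SE 0.135, adjusted p = 1.0e-20), an 18.6-fold difference. CHAC1 was higher by 2.28 (SE 0.239, adjusted p = 2.19e-09), ASNS by 1.58 (SE 0.346, adjusted p = 0.000221) and ADM2 by 1.08 (SE 0.246, adjusted p = 0.00034). NUPR1 was higher by 7.0 (SE 0.310, below counting error, adjusted p = 1.76e-17), a value that depends on the 4 PC9 reads at T0. It was 6.05 without replicate 1 of PC9 T0 and 11.20 without replicate 2, where the remaining library held 0 reads and the size depends on the fit.

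The other T0 differences were smaller. ATF5 was higher in H1650 by 0.49 (SE 0.0874, edgeR adjusted p = 1.73e-05). CEBPB was higher by 0.37 (SE 0.131, edgeR adjusted p = 0.0152), but its groups overlapped, and without replicate 1 of H1650 T0 the difference was 0.10 (adjusted p = 0.541) and without replicate 2 of PC9 T0 it was 0.24 (adjusted p = 0.178), and DESeq2 did not call it (adjusted p = 0.210). DDIT3 was higher by 0.44 (SE 0.195, edgeR adjusted p = 0.0483), and that call was lost without replicate 1 of PC9 T0 (0.18, adjusted p = 0.510), without replicate 2 of H1650 T0 (0.239) and without any 1 of the 4 treated H1650 libraries (0.0565 to 0.0605), and it was not made by DESeq2 (0.144), with RLE factors (0.0595), with no filter (0.121) or at 10 or more counts in every library (0.0509). TRIB3 did not pass the test at -0.16 (95% interval -0.33 to 0.01, edgeR adjusted p = 0.106). It did with no filter (edgeR adjusted p = 0.0425) or with the replicate number as a block (0.0294). Without replicate 1 of H1650 T0 the TRIB3 difference was -0.28.

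**Figure D3:**
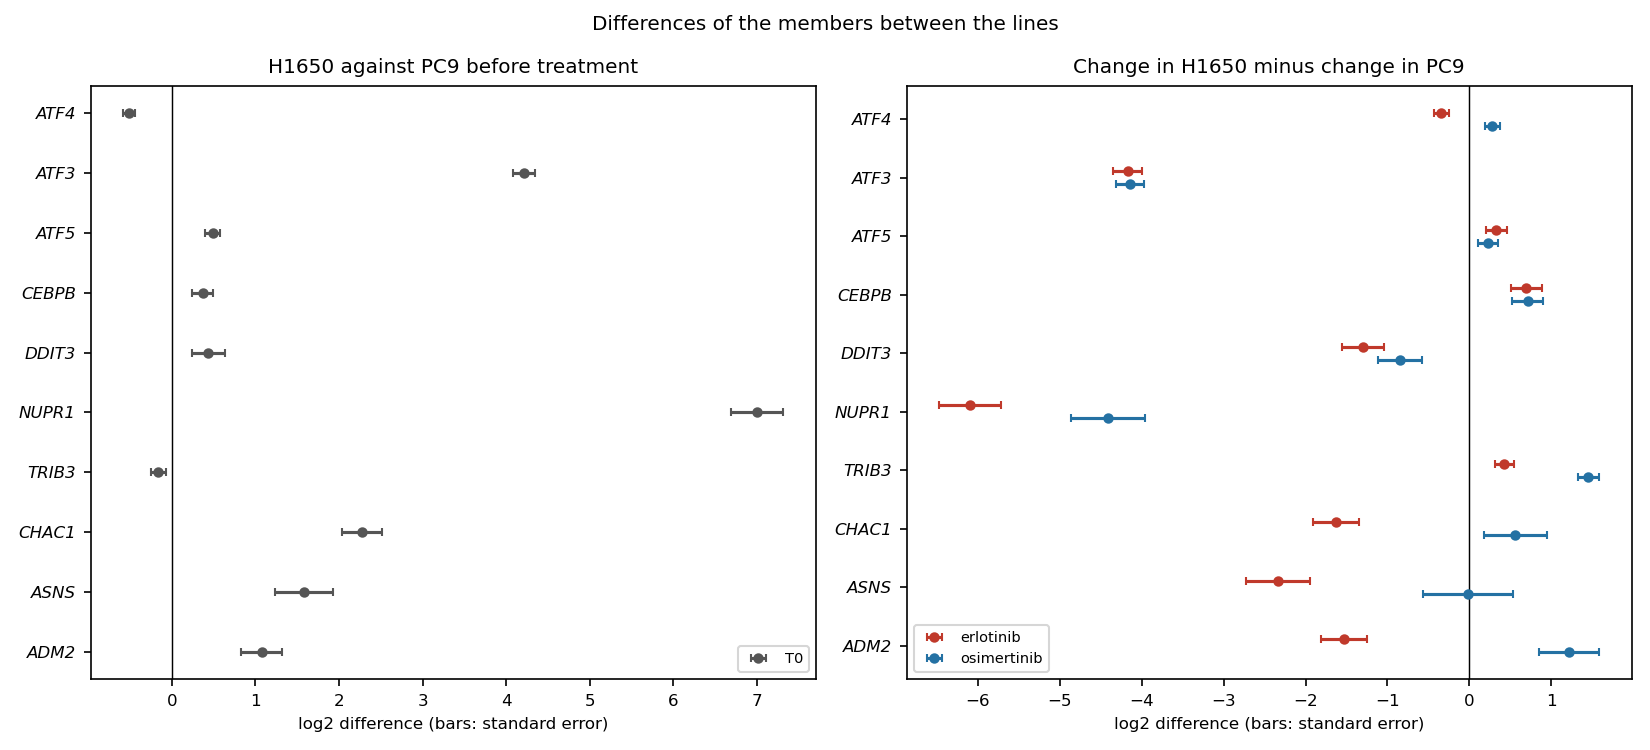
Log2 differences (horizontal axes) of each member between the lines, with bars of 1 SE, which for NUPR1 are shorter than counting error. The left panel gives H1650 against PC9 at T0, where ATF3 stands at 4.22 and ATF4 at -0.51, and the right panel gives the drug-by-line difference, positive where the change was higher in H1650, with erlotinib (red) and osimertinib (blue), where ATF3 stands at -4.17 and -4.15.

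The changes with drug were then compared between lines as a drug-by-line difference, which subtracts the log2 change of PC9 from that of H1650. It is built from the same contrasts that were known when the members were chosen, so its calls describe how the lines differed in these genes and are not independent evidence of a response. With erlotinib all 10 members differed between the lines by edgeR's test, 3 with a higher and 7 with a lower change in H1650, where 21.1% and 19.8% of all tested genes did so. On the log2 scale the effectors changed less in H1650, by -2.34 (SE 0.390, adjusted p = 1.56e-05) for ASNS, -1.63 (SE 0.283, adjusted p = 2.77e-05) for CHAC1 and -1.53 (SE 0.276, adjusted p = 4.73e-05) for ADM2. Their T0 means were higher in H1650 (1.95 against 0.647, 6.59 against 1.35 and 3.34 against 1.57 normalized CPM). After erlotinib CHAC1 averaged 40.2 in H1650 and 25.7 in PC9, ASNS 9.91 and 16.8, and ADM2 32.0 and 43.7. The part of the T0 levels in these differences was not tested. ATF4 itself differed by -0.34 (SE 0.0939, adjusted p = 0.00411). TRIB3 went the other way, with a difference of 0.43 (SE 0.119, adjusted p = 0.00466), which did not pass without replicate 2 of H1650 T0 (adjusted p = 0.0509).

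Among the factors, the drug-by-line difference with erlotinib was -4.17 (SE 0.171, edgeR adjusted p = 2.64e-17) for ATF3, whose level moved in opposite directions in the lines. DDIT3 gave -1.30 (SE 0.255, edgeR adjusted p = 0.000134) and CEBPB 0.70 (SE 0.184, edgeR adjusted p = 0.00302), a call that DESeq2 did not make (adjusted p = 0.0958). NUPR1 gave -6.10 (SE 0.373, edgeR adjusted p = 1.36e-13), again on the PC9 T0 libraries with 0 and 4 reads, and it was -5.15 without replicate 1 of that group and -10.29 without replicate 2. ATF5 gave 0.33 (SE 0.127, edgeR adjusted p = 0.0376) and lost its call without any 1 of 5 libraries, replicates 1 and 2 of PC9 T0, replicate 1 of PC9 erlotinib, and replicate 2 of H1650 T0 and of H1650 erlotinib (adjusted p = 0.0698 to 0.257) and by DESeq2 (0.0804).

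With osimertinib 7 members differed between the lines, 4 with a higher and 3 with a lower change in H1650, where 21.5% and 20.5% of all tested genes did so by edgeR's test. TRIB3, below T0 in PC9 and above it in H1650, differed by 1.45 (SE 0.128, adjusted p = 2.59e-10). ATF3 differed by -4.15 (SE 0.171, adjusted p = 3.56e-17), NUPR1 by -4.41 (SE 0.457, adjusted p = 5.48e-09; -3.46 and -8.61 without replicates 1 and 2 of PC9 T0) and CEBPB by 0.71 (SE 0.186, adjusted p = 0.00265), the last not called by DESeq2 (adjusted p = 0.0817). ADM2 differed by 1.22 (SE 0.368, adjusted p = 0.00849), DDIT3 by -0.84 (SE 0.268, adjusted p = 0.0123) and ATF4 by 0.28 (SE 0.0944, adjusted p = 0.0171). Without replicate 1 of PC9 osimertinib these last 3 calls were lost together (adjusted p = 0.0505, 0.0734 and 0.0656) and 4 members passed. ADM2 also lost its call without replicate 1 of PC9 T0 (0.0518) or of H1650 osimertinib (0.0590), DDIT3 without replicate 1 of PC9 T0 (0.112) or replicate 2 of H1650 T0 (0.0553), and ATF4 without replicate 2 of PC9 T0 (0.0995).

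CHAC1 and ASNS did not pass that test, with drug-by-line differences of 0.56 (95% interval -0.20 to 1.32, edgeR adjusted p = 0.264) and -0.01 (95% interval -1.09 to 1.07, edgeR adjusted p = 1.0). ATF5 gave 0.23 (95% interval -0.02 to 0.48, edgeR adjusted p = 0.154). The drug-by-line differences of both drugs were computed from the same T0 libraries.

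The rest of the pathway was followed with 6 lists of 76 genes that leave out the members, of which 74 were tested (SLC7A3 was under the filter and ERN1 was not used here). These lists hold textbook genes of the pathway but were, like the members, put together with earlier results of these contrasts known, so the calls and p-values for them are descriptions and not independent evidence. By edgeR's test, 50 of the 74 were higher and 20 lower after erlotinib in PC9, and 47 were higher and 15 lower in H1650. After osimertinib 20 were higher and 38 lower in PC9, and 27 were higher and 20 lower in H1650. With osimertinib against erlotinib 12 were higher and 46 lower in PC9, and 9 were higher and 39 lower in H1650. The shares of all genes called are those given beside the member counts.

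**Figure D4:**
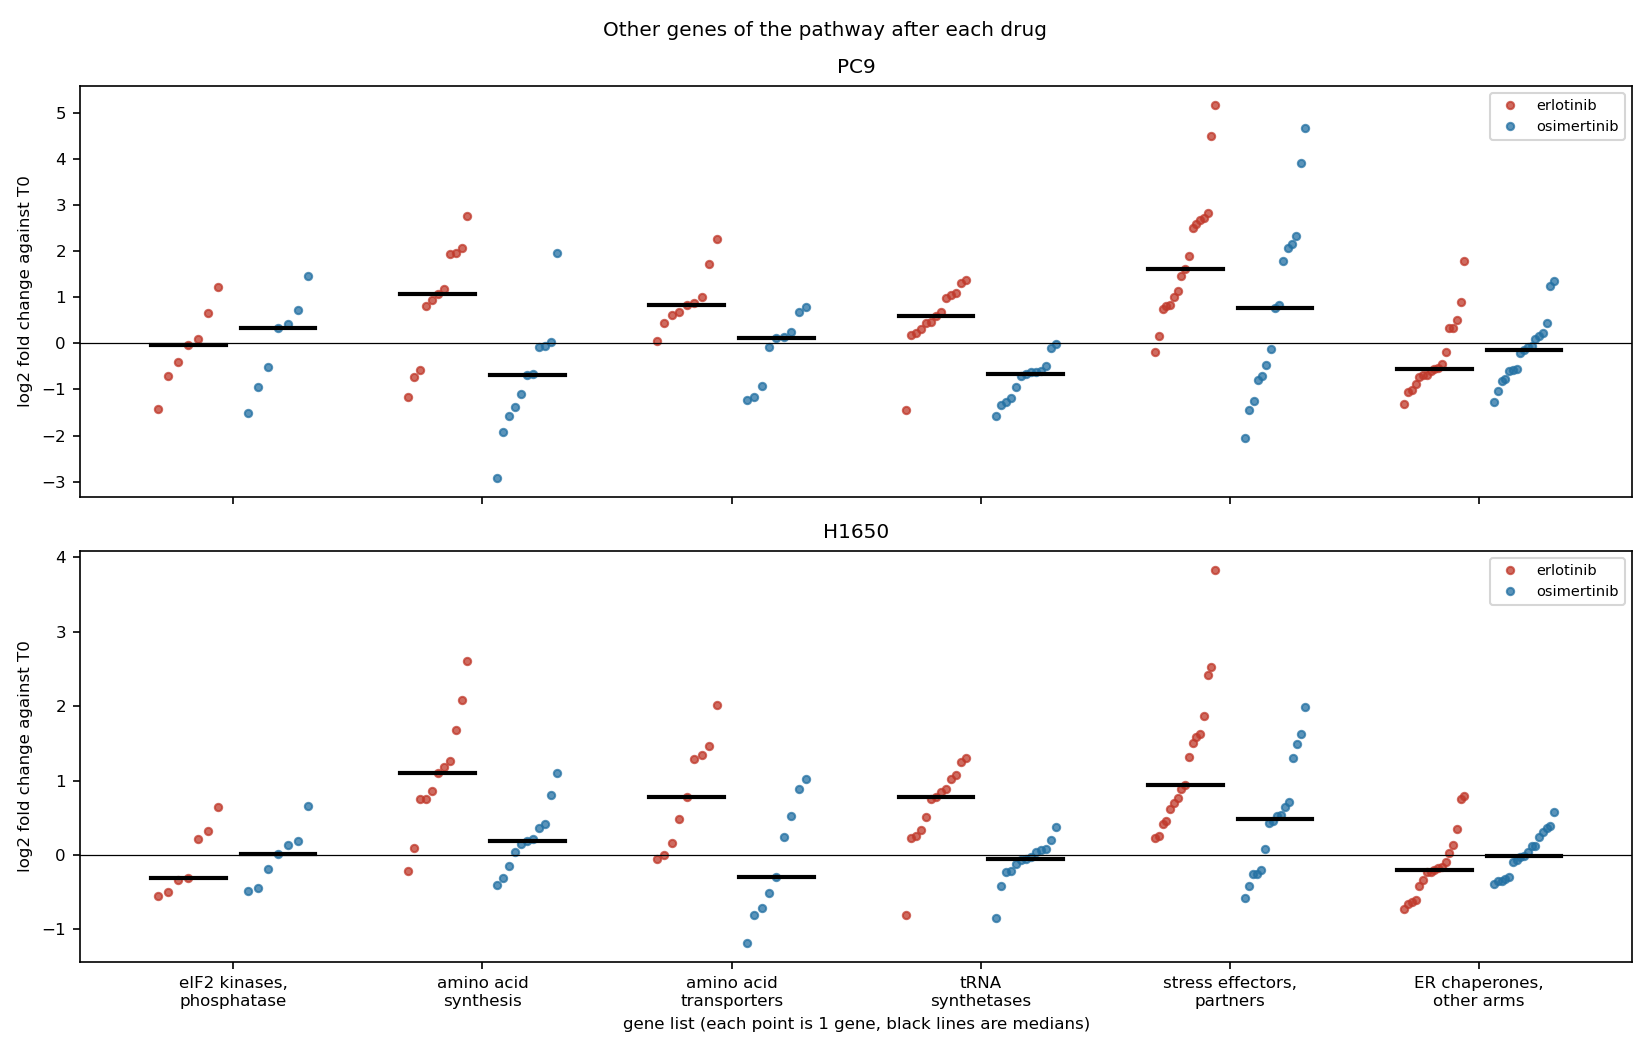
Log2 fold change from T0 (vertical axes) of each tested gene of the 6 pathway lists (horizontal axis) with erlotinib (red) and osimertinib (blue) in PC9 (top) and H1650 (bottom). Points are genes, black lines are list medians, and genes with no more than 3 reads in every library of 1 group are drawn at the fold against that floor, or left out where both groups were at or under it. The tRNA synthetase median lies at 0.58 with erlotinib and -0.67 with osimertinib in PC9.

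The sensors and regulators of eIF2 moved in no common direction. EIF2S1, the phosphorylated subunit of eIF2 itself, was lower after erlotinib by log2 -1.42 (SE 0.0791) in PC9 and -0.55 (SE 0.0787) in H1650, and lower after osimertinib by -1.50 (SE 0.0799) and -0.48 (SE 0.0784). EIF2AK4, the kinase that senses uncharged tRNA, was lower as well, by -0.72 (SE 0.0762) and -0.50 (SE 0.0809) with erlotinib and by -0.95 (SE 0.0775) and -0.44 (SE 0.0803) with osimertinib. All 8 of these differences passed edgeR's test (adjusted p at most 6.77e-05). EIF2AK2, the double-stranded RNA sensor, was lower after both drugs in PC9, by -0.40 (SE 0.0792) and -0.52 (SE 0.0799), and higher after both in H1650, by 0.64 (SE 0.0776) and 0.65 (SE 0.0775).

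EIF2AK3, the kinase of the endoplasmic reticulum, was higher after osimertinib in PC9 by 0.73 (SE 0.121) and lower after erlotinib in H1650 by -0.34 (SE 0.109), with -0.04 (SE 0.124) and -0.18 (SE 0.108) in the other contrasts, which did not pass. EIF2AK1, the haem-regulated kinase, was higher by 0.19 to 0.33 in every contrast with T0 except erlotinib in PC9, where 0.10 (SE 0.0684) did not pass. PPP1R15A, the stress-induced subunit that directs eIF2 dephosphorylation, was higher in PC9 by 1.22 (SE 0.0800) with erlotinib and 1.46 (SE 0.0803) with osimertinib. In H1650 it was lower by -0.31 (SE 0.0821) with erlotinib, and 0.13 (SE 0.0805) with osimertinib did not pass. PPP1R15B, its constitutive counterpart, was higher by 0.65 (SE 0.0774) and 0.42 (SE 0.0780) in PC9 and by 0.32 (SE 0.0761) after erlotinib in H1650, with 0.02 (SE 0.0763) after osimertinib.

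Of 11 enzymes of amino acid synthesis, 8 were higher and 3 lower after erlotinib in PC9, and 9 were higher and 1 lower in H1650, where the list medians were 1.07 and 1.10 on the log2 scale. After osimertinib 1 was higher and 7 lower in PC9 (median -0.69), and 5 were higher and 2 lower in H1650 (median 0.19). PSAT1, phosphoserine aminotransferase of serine synthesis, averaged 155 normalized CPM at T0 in PC9, 604 after erlotinib and 20.6 after osimertinib, and 89.9, 547 and 105 in H1650. Its log2 differences were 1.96 (SE 0.0709, edgeR adjusted p = 2.86e-19) and -2.92 (SE 0.0815, edgeR adjusted p = 1.05e-21) in PC9, and 2.61 (SE 0.0731, edgeR adjusted p = 9.29e-20) and 0.22 (SE 0.0716, edgeR adjusted p = 0.0167) in H1650. PSAT1 was named because it was the highest of this list after erlotinib in H1650, so these p-values are descriptions only. CTH, which makes cysteine from cystathionine, was higher after both drugs in both lines, by 2.76 (SE 0.156) and 1.95 (SE 0.161) in PC9 and by 1.18 (SE 0.230) and 1.10 (SE 0.230) in H1650. GOT1, the cytosolic aspartate aminotransferase, was lower in PC9 by -1.17 (SE 0.0928) and -1.57 (SE 0.0987), and ALDH18A1, of proline synthesis, was lower after erlotinib by -0.57 (SE 0.0812) in PC9 and -0.22 (SE 0.0796) in H1650.

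Of 9 tested amino acid transporters, 8 were higher and 1 was not called after erlotinib in PC9 (median 0.83), and 6 were higher and 3 not called in H1650 (median 0.79). SLC6A9, a glycine transporter, was higher after erlotinib by 2.27 (SE 0.0957) in PC9 and 2.02 (SE 0.0958) in H1650, and after osimertinib by 0.67 (SE 0.0988) and 1.02 (SE 0.0971). SLC7A5, the light chain of the large neutral amino acid exchanger, was higher after erlotinib in PC9 by 1.00 (SE 0.0785), while its -0.05 (SE 0.0782) in H1650 did not pass. SLC7A1, a cationic amino acid transporter, gave 0.05 (SE 0.0724) and 0.16 (SE 0.0737) with erlotinib, which did not pass, and was lower with osimertinib by -1.16 (SE 0.0753) and -0.71 (SE 0.0754). With osimertinib 3 transporters were higher and 3 lower in PC9 (median 0.11), and 4 were higher and 5 lower in H1650 (median -0.29).

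Of the 13 cytosolic aminoacyl-tRNA synthetases, which load amino acids onto tRNA, after erlotinib 12 were higher and 1 lower in each line, with medians of 0.58 in PC9 and 0.77 in H1650. After osimertinib 11 were lower and 2 not called in PC9 (median -0.67), and 2 were higher and 4 lower in H1650 (median -0.06). CARS1, the cysteinyl enzyme, was higher after erlotinib by 1.37 (SE 0.0909) in PC9 and 1.25 (SE 0.0932) in H1650. WARS1, the tryptophanyl enzyme, was higher by 1.09 (SE 0.0834) and 1.31 (SE 0.0751). VARS1, the valyl enzyme, was the one lower after erlotinib in both lines, by -1.45 (SE 0.0759) and -0.81 (SE 0.0777), and it was lower by -1.57 (SE 0.0767) and -0.85 (SE 0.0776) after osimertinib.

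Of 17 stress effectors and partner factors, 15 were higher and 1 lower after erlotinib in PC9, and 14 were higher and 3 not called in H1650. The list medians, with genes at or under 3 reads per library set at that floor, were 1.60 and 0.95, and by the fitted values they were 1.89 and 0.98. After osimertinib 8 were higher and 6 lower in PC9 and 9 were higher and 2 lower in H1650, with medians at the floor of 0.77 and 0.49 and fitted medians of 0 and 0.52. PCK2, mitochondrial phosphoenolpyruvate carboxykinase, was higher after erlotinib by 2.71 (SE 0.0933) in PC9 and 2.41 (SE 0.0990) in H1650. KLHL24, a substrate adaptor of a ubiquitin ligase, was higher after both drugs, by 4.49 (SE 0.106) and 4.67 (SE 0.106) in PC9 and by 1.87 (SE 0.103) and 1.98 (SE 0.103) in H1650. CEBPD, a C/EBP factor, was higher in PC9 by 1.60 (SE 0.162) with erlotinib and 2.16 (SE 0.160) with osimertinib. In H1650 it was higher with osimertinib by 0.65 (SE 0.127), and 0.23 (SE 0.129) with erlotinib did not pass. TNFRSF10B, the death receptor DR5, was lower in PC9 by -0.19 (SE 0.0838) and -0.46 (SE 0.0856) and higher in H1650 by 0.45 (SE 0.0882) and 0.43 (SE 0.0880).

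Endoplasmic reticulum chaperones and genes of the other arms of the unfolded protein response were more often lower than higher after erlotinib. Of 17 tested, 5 were higher and 12 lower in PC9 (median -0.56), and 3 were higher and 9 lower in H1650 (median -0.20). HERPUD1, which acts in the degradation of misfolded proteins and responds to several arms, was higher after erlotinib by 1.79 (SE 0.0919) in PC9 and 0.80 (SE 0.0770) in H1650. SDF2L1, a chaperone cofactor, was lower by -1.32 (SE 0.156) and -0.72 (SE 0.146). After osimertinib 4 were higher and 8 lower in PC9 (median -0.14), and 5 were higher and 5 lower in H1650 (median -0.01). The difference between these genes and the synthesis or synthetase lists was not tested.

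Likeness among the members was described by Pearson's r over the 12 libraries, on log2 values centred within each line, between each member and the mean of the others. The points share libraries, treatments and the choice of members, so no p is given. ADM2 followed the others most closely, at 0.986, then ASNS at 0.980, CHAC1 at 0.978 and ATF4 at 0.971. DDIT3 gave 0.858, NUPR1 0.857 and TRIB3 0.851. CEBPB at 0.556 and ATF3 at 0.262 followed them least, and ATF5 ran opposite at -0.891.

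By the same measure, the 6 non-member genes most like the mean of the members, of 10286 with at least 10 CPM on average, were PYCR1 (0.985), CBS (0.984), PCK2 (0.984), ECI1 (0.984), TTC39B (0.978) and ALDH1L2 (0.977). PYCR1 makes proline and CBS makes cystathionine from homocysteine. ALDH1L2 acts in mitochondrial folate metabolism, and ECI1 in the oxidation of unsaturated fatty acids. ALDH1L2 averaged 0.846, 10.8 and 0.487 normalized CPM at T0, after erlotinib and after osimertinib in PC9, and 16.9, 88.7 and 23.6 in H1650. ECI1 averaged 59.4, 118 and 63.3 in PC9 and 50.9, 77.4 and 58.3 in H1650. In these genes, picked for their likeness, the erlotinib mean was the highest of each line.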

How the data were processed

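PC9 and H1650 were each measured at T0 and after erlotinib or osimertinib by polyA RNA-seq, with 2 replicates per group. The authors deposited a table of raw read counts per gene made with featureCounts in the DolphinNext pipeline, and the submitters' processing notes name GRCh38 and DESeq2. The aligner, annotation and strandedness are not given in the sources used here.

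The members and the pathway lists were chosen with earlier results of these data known. The analysis used edgeR 4.0.16 (R 4.3.3). Genes were filtered by filterByExpr, TMM factors (0.941 to 1.08) were applied, and a quasi-likelihood model of the 6 groups was fitted over 19108 genes, with Benjamini-Hochberg adjustment and a threshold of 0.05. The biological coefficient of variation was 0.0656. Replicates differed by more than counting noise (chi-square per gene 4.07 to 7.17), and p-values measure no spread beyond that between these replicates. The spread of each gene was drawn toward that of all genes, with 20.7 prior beside 6 residual degrees of freedom. Errors are SE of the fit or SD over 2 libraries.

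Named genes were the members, every eIF2 gene, the highest and lowest gene of each other list after erlotinib in each line among those with a mean of at least 10 CPM, and the 6 genes most like the members. Alternatives were RLE factors, DESeq2 1.42.0, no filter, at least 10 counts in every library, a replicate block, separate fits per line and leaving out each library. Positions and overlaps are from GENCODE 29, whose exonic lengths differ from those in the table.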

Additional observations from a re-analysis of the deposited data

Results flagged for a closer look

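The changes with drug that differed between PC9 and H1650 by edgeR's quasi-likelihood test are collected here as log2 differences, H1650 change minus PC9 change, each beside its SE. With erlotinib the values were -0.34 (SE 0.0939) for ATF4, -4.17 (SE 0.171) for ATF3, 0.33 (SE 0.127) for ATF5, 0.70 (SE 0.184) for CEBPB and -1.30 (SE 0.255) for DDIT3. They were -6.10 (SE 0.373) for NUPR1, 0.43 (SE 0.119) for TRIB3, -1.63 (SE 0.283) for CHAC1, -2.34 (SE 0.390) for ASNS and -1.53 (SE 0.276) for ADM2. The NUPR1 value rests on 4 reads at T0 in PC9, and its SE is below counting error. It was -5.15 and -10.29 without replicates 1 and 2 of that group. The limits given earlier for ATF5, CEBPB and TRIB3 apply here too.

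With osimertinib the values were 0.28 (SE 0.0944) for ATF4, -4.15 (SE 0.171) for ATF3, 0.71 (SE 0.186) for CEBPB and -0.84 (SE 0.268) for DDIT3. They were -4.41 (SE 0.457) for NUPR1, 1.45 (SE 0.128) for TRIB3 and 1.22 (SE 0.368) for ADM2. For NUPR1, CEBPB, ADM2, DDIT3 and ATF4 the limits given earlier with these values apply. The lines had unlike T0 levels of some of these genes. ATF3 averaged 3.03 normalized CPM at T0 in PC9 and 56.2 in H1650, and NUPR1 0.0987 and 13.5. The part of those T0 levels in the differences was not tested.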

How the results depend on the processing

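Among values with a test, 464 kept their direction and side of the threshold under the alternatives, 30 lost the call, 3 gained it and 7 changed sign. The 7 sign changes were all of ASNS with osimertinib between the lines (main value -0.01, never called), which was 0.0590 with no filter and ran from -0.55 to 1.08 on leaving out 1 library. The number of members called in that comparison was 7 and ran from 4 to 7 on leaving out 1 library, the 4 coming without replicate 1 of PC9 osimertinib. The calls of DDIT3, CEBPB and ATF5 that other tools or filters did not make are given beside those values.

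All counts of members and pathway genes called stayed within 1.5 times the main count under RLE, DESeq2, no filter, at least 10 counts in every library and separate fits per line. The 60 log2 changes of the members with drug kept their sign under RLE, DESeq2, no filter and separate fits. On leaving out 1 library 59 to 60 did, the exceptions being small changes that edgeR had not called. Of the 60, 48 could be fitted at 10 counts or more in every library. The NUPR1 change with erlotinib in PC9 moved between 8.12 and 13.27 on leaving out 1 T0 library, since 0 or 4 reads then remained.

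Replicate numbers were not taken as pairs: same-numbered deviations correlated at 0.00296 to 0.470 over 15 pairs of groups, with 13 above 0.1. With the replicate number as a block, 10 members were called at T0, 10 for erlotinib and 7 for osimertinib between the lines. Of all 19108 tested genes, 13591, 8467 and 8695 were called in these comparisons. TRIB3 at T0 was gained (edgeR adjusted p = 0.0294). With that block 70 pathway genes were called after erlotinib and 59 after osimertinib in PC9, against 66 and 51 for H1650. Of all 19108 tested genes, 12176 and 12127 were called in PC9, and 7821 and 7680 in H1650. At 17961765 to 26346187 reads per library, ASNS and NUPR1 in PC9 at T0 rested on 26 and 4 reads.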

Other observations

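The table also lists ASNSP1, a pseudogene of ASNS. In PC9 it had 0 to 2 reads per library. In H1650 it had 41 and 56 reads at T0, 155 and 186 after erlotinib, and 15 and 20 after osimertinib, so its erlotinib libraries were the highest of that line, as they were for ASNS. Whether these reads came from ASNS or from the pseudogene was not tested. These values were chosen after they were seen.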
